A study of Mus musculus with 4 samples.

Results

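The genes described here are markers of Schwann cells and of peripheral myelin, read in mouse soleus muscle as a measure of the nerve tissue that the muscle sample holds. The list names 8 genes, Mbp, Pmp22, Mal, Cnp, Prx, S100b, Ngfr and Gfra3, and a probe set (the array's set of oligonucleotides for a transcript) was taken when the platform annotation gave it exactly 1 gene symbol and that symbol was on the list. This found 6 of the 8 genes on 8 of 12488 probe sets, with 2 probe sets each for Mbp and Pmp22. Prx and Ngfr matched no probe set with 1 symbol and were not analysed here.

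Soleus, a slow-twitch calf muscle, was profiled on 4 arrays from wildtype and HSL-null mice, all female and 6 months old. HSL-null mice lack hormone-sensitive lipase, an enzyme that hydrolyses stored fat and is encoded by Lipe; the labels give neither the strain nor the disrupted part of the gene. The labels call each array a technical duplicate of muscle pooled from 5 mice, without saying outright that the 2 arrays of a genotype share their pool. They were taken here to do so, as 1 pool per genotype, and on that reading the errors below are those of the arrays and no value has a replicate check across animals. In whole muscle, a lower number of Schwann cells and less RNA per cell cannot be told apart.

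Skeletal muscle is supplied by motor and sensory axons that run in small intramuscular nerve branches. Myelinating Schwann cells wrap the large axons in layers of membrane held together by a few abundant proteins, non-myelinating Schwann cells ensheath the small ones, and terminal Schwann cells cap the neuromuscular junction. The cell bodies of the neurons lie outside the muscle, so that transcripts in a muscle sample come mostly from the glia and not from the axons. Schwann cells are a small minority of the cells of a muscle, and several of their markers are also made by other cells: Pmp22 by fibroblasts and endothelium, S100b by adipocytes, Mal by T cells and epithelia, and the Mbp locus by immune cells through its longer golli transcripts.

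The deposited values are linear intensities. Values below a floor of 5.70, the 25th percentile of all deposited values, were raised to it before log2 was taken, and a filter was set at the median level of all probe sets (mean intensity over the 4 arrays 27.7), which 6208 probe sets passed. Of the 8 member probe sets, 4 passed the filter: both for Mbp, the brighter one for Pmp22 and that for Gfra3. Gfra3, at a mean of 28.0 over the 4 arrays, and the second Mbp probe set, at 29.1, lay just inside it, and Mal, at 18.9, was the nearest outside. S100b lay between the floor and the filter on every array, and Cnp and the second Pmp22 probe set lay at or below the floor on every array. Most of what these 8 probe sets can say therefore comes from dim signals.

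No member probe set differed between the genotypes by the rule used here, in which a probe set is separated when each HSL-null array differs from each wildtype array in the same direction and by at least 1.5-fold. The count was 0 of the 4 above the filter, where 0.451% of all tested probe sets were separated (28 of 6208), and 0 of all 8 without the filter, where 1.42% were (176 of 12422). With so few members, a count of 0 is what these background shares alone would give. The arrays of the genotypes did not overlap for 4 of the 8 probe sets, higher in HSL-null for Mal, S100b and Gfra3 and lower for the second Mbp probe set. Without the filter 15.7% of probe sets did not overlap in the higher direction and 14.1% in the lower. Among the 4 members above the filter the counts were 1 higher (Gfra3) and 1 lower (Mbp), against 19.5% and 21.1% of tested probe sets. Both passed the filter of 27.7 only through the genotype where they were higher. Gfra3 averaged 25.4 in wildtype and 30.55 in HSL-null, and the second Mbp probe set 32.45 and 25.85. These counts and the median are thus not independent of the filter. The median log2 difference of the 4 members above the filter, HSL-null minus wildtype, was 0.08, beside -0.0022 over all tested probe sets. It was -0.08 without wildtype array 2. With 1 value per gene (Mbp, Pmp22 and Gfra3) it was 0.20 from the brightest probe sets and -0.03 from the mean over probe sets, so that no direction is given.

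**Figure D1:**
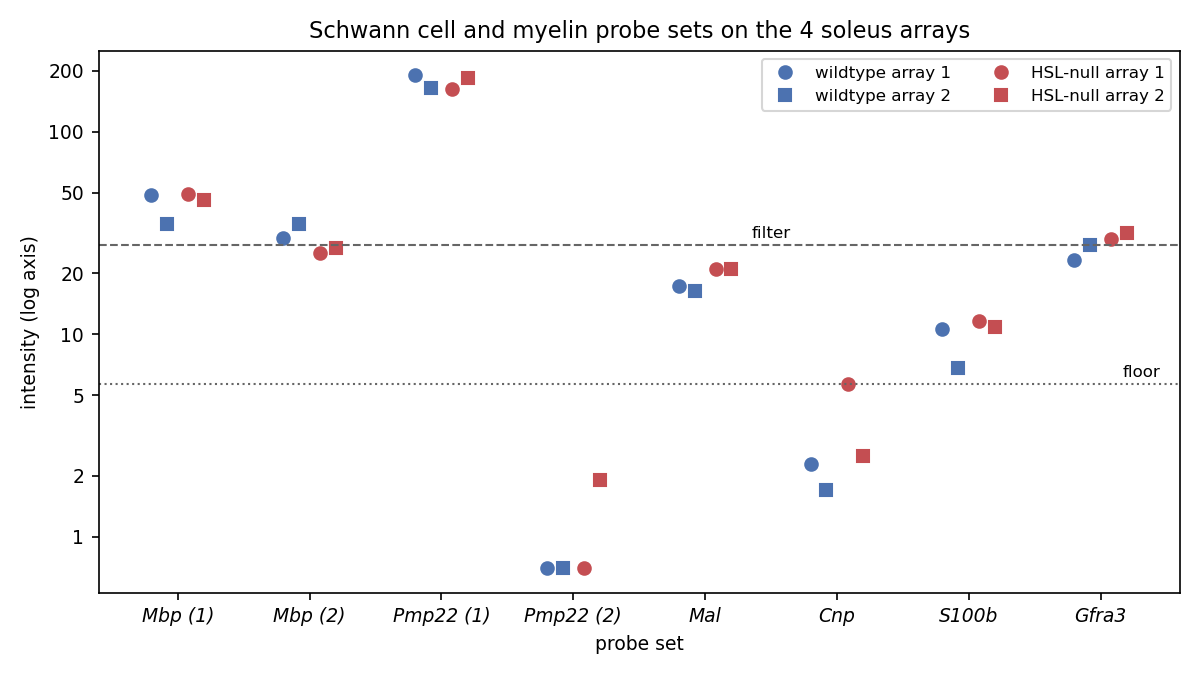
Intensity (log axis) of each of the 8 probe sets on each of the 4 arrays, with wildtype in blue and HSL-null in red and circles and squares for arrays 1 and 2. The brighter Pmp22 probe set lies between 163 and 190 with the genotypes interleaved, and Cnp and the second Pmp22 probe set lie at or under the floor of 5.70 (dotted line), far below the filter of 27.7 (dashed line).

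Of the proteins of compact myelin, myelin basic protein holds the cytoplasmic faces of the membrane layers together. The brighter Mbp probe set read 48.6 and 35.2 in wildtype, and 49.3 and 45.8 in HSL-null. Wildtype array 2 was the low one, and the other 3 arrays lay within a few units of each other, so that the genotypes overlapped. The levels were 41.9 ± 9.47 in wildtype (SD, n = 2 arrays) and 47.5 ± 2.47 in HSL-null, a log2 difference of 0.20 ± 0.24 (SE of the duplicates). The difference was -0.03 without wildtype array 2 and 0.43 without wildtype array 1.

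The second Mbp probe set went the other way. It measured 30 and 34.9 in wildtype and 25.1 and 26.6 in HSL-null, so that both HSL-null arrays lay below both wildtype arrays. The log2 difference was -0.32 ± 0.12, or 1.25-fold lower, and it stayed between -0.43 and -0.22 with each array left out in turn. The files do not say which Mbp transcripts each probe set reads. Set against each other on each array, the log2 ratio of the first to the second Mbp probe set was 0.70 and 0.01 in wildtype and 0.97 and 0.78 in HSL-null. Its change of 0.52 between genotypes had an SE of 0.35 from these duplicates and 0.38 from the noise of probe sets at the same levels, and was less than 2 SE of either kind. Markers of T cells and lymphocytes, which can make golli transcripts, were dim in both pools: 8 of 10 were on the array and 0 of the 8 passed the filter. Their summed intensity was 62.0 to 69.8 in wildtype and 68.7 to 79.0 in HSL-null, and their part in the Mbp values was not tested.

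Pmp22 encodes peripheral myelin protein 22, a small membrane protein of compact myelin whose gene dosage is changed in hereditary neuropathies. Its brighter probe set was the best measured of the members. It gave 190 and 165 in wildtype and 163 and 183 in HSL-null, with each genotype having 1 array near the top and 1 near the bottom of that range. The levels of 177 ± 17.5 (SD, n = 2 arrays) and 173 ± 14.2 differed by -0.03 ± 0.13 on the log2 scale. Leaving out 1 array at a time moved the difference between -0.13 and 0.07, to either side of 0. The second Pmp22 probe set read 0.70, 0.70, 0.70 and 1.9, all under the floor, so that it gives no comparison. Of the other cells that make Pmp22, the 10 fibroblast markers summed to 3835 on both wildtype arrays and to between 4325 and 4493 in HSL-null. On all 4 pairs 8 of the 10 were higher, and 0 were separated. Among all tested probe sets 19.5% were higher on all 4 pairs and 0.451% were separated in either direction. The 10 endothelial markers summed to 1177 to 1228 in wildtype and 1151 to 1173 in HSL-null. The part of either cell type in the Pmp22 signal was not tested.

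Mal encodes the myelin and lymphocyte protein, a proteolipid of lipid rafts found in compact myelin. It measured 17.3 and 16.3 in wildtype and 21.1 and 21.1 in HSL-null. Both HSL-null arrays lay above both wildtype arrays, and the smallest of the 4 differences was 1.22-fold. Under a 1.2-fold rule without the filter, tried after the data were seen, Mal was the 1 separated member of the 8 probe sets, and 3.5% of all probe sets were separated in that direction. The log2 difference of 0.33 ± 0.04 has a small SE because the duplicates happened to be close. Among the 500 probe sets nearest in level the duplicates varied much more, which gives an expected SE of 0.42 for Mal. A difference at least this large was seen in 8.63% of tested probe sets, all of which are brighter than Mal. Its log2 difference was 0.25 with quantile normalization and 0.00 when the floor was raised to the median of the table, which lies above all 4 of its values.

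Outside compact myelin, Cnp encodes the cyclic nucleotide phosphodiesterase of non-compact myelin and Schwann cell cytoplasm. It read 2.30 and 1.70 in wildtype and 5.70 and 2.50 in HSL-null. The single higher value, on HSL-null array 1, only reached the floor, and no difference is given. Cnp is thus measured as dim, not as absent, since no detection calls were used here.

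S100b encodes a calcium-binding protein of glia that is a standard Schwann cell marker. It measured 10.6 and 6.80 in wildtype and 11.6 and 10.9 in HSL-null. Both HSL-null arrays lay above both wildtype arrays, but HSL-null array 2 exceeded wildtype array 1 by only 1.03-fold. The log2 difference was 0.41 ± 0.32 (SE of the duplicates), against an SE of 0.51 expected at this level, and it was 0.09 without wildtype array 2 and 0.73 without wildtype array 1. White adipocytes also make S100b. Their 8 markers on the array, Lipe among them, summed to 617 to 631 in wildtype and to 425 to 427 in HSL-null. Of the 5 above the filter, 4 were lower on all 4 pairs, against 21.1% of tested probe sets, and 1 overlapped. Separated lower were 2, where 0.451% of tested probe sets were separated in either direction: the adipocyte hormone gene Adipoq (log2 difference -1.06 ± 0.03) and Lipe (-2.0 ± 0.13). Lipe is the gene disrupted in these mice, so its fall from 70.8 to 17.8 on average is no measure of adipocyte content. Lipe also passed the filter only through wildtype. The part of adipocytes in the S100b level was not tested.

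Of the 2 receptors on the list, Gfra3 was measured. It encodes the GPI-anchored receptor for artemin, a ligand of the GDNF family that signals through Ret, and is made by Schwann cells and by sensory neurons. Gfra3 measured 23.2 and 27.6 in wildtype and 29.6 and 31.5 in HSL-null. All 4 pairs were higher in HSL-null, the closest by 1.07-fold. The levels of 25.4 ± 3.11 (SD, n = 2 arrays) and 30.5 ± 1.34 gave a log2 difference of 0.27 ± 0.13, against an expected SE of 0.32 at this level. It ranged from 0.15 to 0.40 with each array left out.

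**Figure D2:**
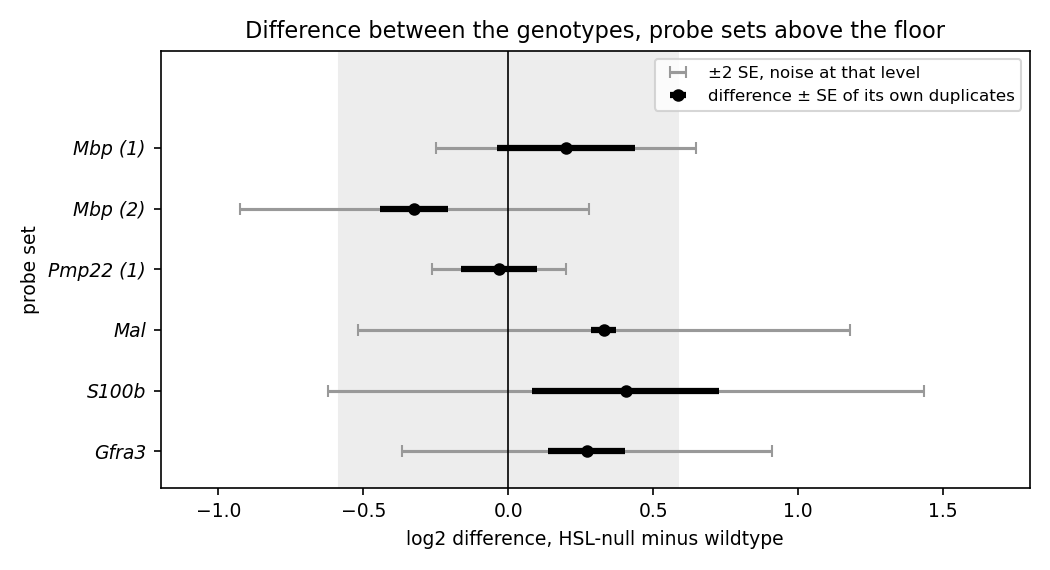
Log2 difference (HSL-null minus wildtype) of the 6 probe sets above the floor, with black bars for the SE of each probe set's own duplicates and grey bars for 2 SE of the noise among 500 probe sets of the same level; the shaded band marks changes under 1.5-fold. Every grey bar crosses 0, and Pmp22 alone has its whole bar, from -0.26 to 0.20, inside the band.

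The error of the arrays sets how large a difference could have gone unseen. Taking 2 SE of the noise at each level, the ratio of HSL-null to wildtype lay between 0.83 and 1.15 for Pmp22, 0.84 and 1.57 for the brighter Mbp probe set and 0.53 and 1.21 for the other. It lay between 0.77 and 1.88 for Gfra3, 0.70 and 2.26 for Mal and 0.65 and 2.70 for S100b. These intervals cover array error only. None of the 6 differences was larger than 2 such SE, and 1, of the second Mbp probe set, was larger than 1. A change of 1.5-fold or more in these pools would lie outside the interval for Pmp22, but not for the dimmer members in at least 1 direction.

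Summed over the 6 genes, each by its brighter probe set, the intensities were 292 and 252 in wildtype and 281 and 295 in HSL-null, a ratio of the means of 1.06. Pmp22 makes up most of that sum. Without it the other 5 genes summed to 102 and 87.6 in wildtype and 117 and 112 in HSL-null, a ratio of 1.21, with both HSL-null arrays above both wildtype arrays. Wildtype array 2 gave the lowest sum either way. Both sums leave out the second Mbp probe set, which was lower in HSL-null on all 4 pairs, and the ratio with it in place of the brighter one was not computed.

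The label was checked on 6 defining Schwann cell genes, of which 3 passed the filter. These 3 were Sox10, the transcription factor required for the lineage, Erbb3, its neuregulin receptor, and Dhh, which encodes the Schwann cell ligand desert hedgehog. Sox10 measured 28.4 and 36.9 in wildtype and 38.6 and 35.9 in HSL-null (log2 difference 0.20 ± 0.20). Erbb3 measured 75.7 and 79.8 in wildtype and 71.5 and 69.3 in HSL-null (-0.14 ± 0.04, expected SE 0.17). Dhh measured 67.5 and 54.8 against 53.4 and 50.2 (-0.23 ± 0.16, expected SE 0.20). Erbb3 and Dhh were lower on all 4 pairs of arrays, where 21.1% of tested probe sets were, and neither was separated. The other 3 lay under the filter. Egr2, the regulator of myelination, at 20.7 on average over the 4 arrays, was higher in HSL-null on all 4 pairs (0.40 ± 0.13, expected SE 0.38). Gjb1, the connexin of non-compact myelin, at 11.5, was lower on all 4 pairs (-0.50 ± 0.37, expected SE 0.52). Mag, an adhesion protein of the inner myelin membrane, at 23.1, overlapped (0.40 ± 0.39). Without the filter 15.7% of all probe sets were higher on all 4 pairs and 14.1% lower. Schwann cell genes were thus read from a few dim markers and the muscle from bright ones: all 8 genes that define the soleus fibre passed the filter, led by slow troponin T (Tnnt1) at 5867 ± 313 in wildtype (SD, n = 2 arrays) and 6062 ± 172 in HSL-null.

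Other genes of the peripheral nerve were read from 6 lists of 113 genes, of which 72 were on the array and 21 passed the filter. None of the 21 was separated, 3 (14.3%) were higher and 6 (28.6%) lower on all 4 pairs, and their median log2 difference was -0.04. The background shares for these counts were 19.5% and 21.1%.

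Among 22 other myelin protein genes 8 were on the array and 1 passed the filter. That was Cd9, a tetraspanin of myelin that many other cells make as well, which measured 73.8 and 51.8 in wildtype and 96.7 and 91.3 in HSL-null. Both HSL-null arrays lay above both wildtype arrays, with a log2 difference of 0.60 ± 0.26, and the smallest difference between arrays fell short of 1.5-fold. Mag, the next brightest, measured 23.5 and 16.2 against 21.2 and 31.4, with the genotypes overlapping. The enzymes of myelin lipids had 1 of 6 above the filter, Smpd1, the acid sphingomyelinase of lysosomes, at -0.04 ± 0.12. Elovl1, a fatty acid elongase below the filter, lay at -0.21 ± 0.11, against an expected SE of 0.35.

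Schwann cell regulators had 8 of 15 above the filter, with 4 above and 4 below 0 and a median log2 difference of -0.04. The brightest were Jun, the factor that drives the repair state of Schwann cells and is made in most tissues (0.31 ± 0.10, expected SE 0.16), and Nab1, a cofactor of Egr2 (0.06 ± 0.13). Notch1, a receptor in Schwann cell development that many cells make, had the largest difference of the 21 nerve genes above the filter and is named with its values known. It measured 54.5 and 41 in wildtype and 18.2 and 35.8 in HSL-null, lower on all 4 pairs but not separated, with a log2 difference of -0.89 ± 0.53. Notch1 passed the filter of 27.7 only through wildtype (47.75 on average, against 27.0 in HSL-null), so its place among these genes is not independent of its difference. Genes of immature, non-myelinating and repair Schwann cells had 3 of 11 above the filter, Nes, Sox10 and the adhesion molecule Ncam1. Nes, which encodes the filament protein nestin and is also made in muscle fibres at the junction, measured 265 and 253 in wildtype and 220 and 227 in HSL-null (-0.21 ± 0.04, expected SE 0.11). Gap43 and Gfap, markers of the non-myelinating and repair states, lay below the filter on average, at 8.05 and 12.

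Ligands and receptors of the neurotrophin and GDNF families had 5 of 12 above the filter and a median of 0.03. Maged1, a binding partner of the neurotrophin receptor that is widely made, lay at 0.03 ± 0.08. Pspn, which encodes the GDNF family ligand persephin, lay at 0.56 ± 0.54, where wildtype array 1 alone was low, at 30.9 against 63.1 to 69.0. Artn, the ligand of Gfra3, read 33.0 and 16.7 in wildtype and 18.4 and 25 in HSL-null, below the filter, and Ret, the signalling partner of Gfra3, lay under the floor on all 4 arrays. The genes of axons and neurons had 4 of 21 above the filter, all 4 below 0 and 1 of them on all pairs, with a median of -0.07. Mapt, which encodes the microtubule protein tau and is also made in muscle, lay at -0.16 ± 0.03 (expected SE 0.11) and Tubb3 at -0.04 ± 0.18.

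**Figure D3:**
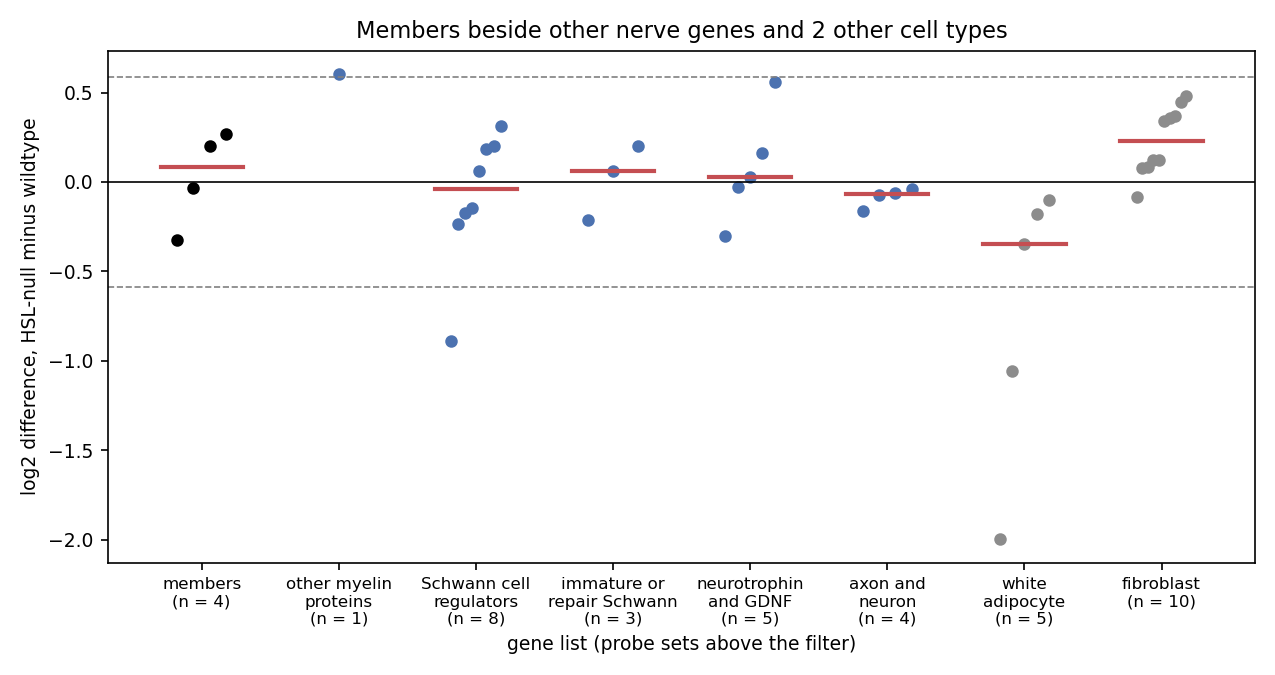
Log2 difference (HSL-null minus wildtype) of the 4 member probe sets above the filter beside genes of 5 other nerve lists and of white adipocytes and fibroblasts, 1 point a gene (a probe set for the members), with red lines for medians of 3 or more and dashed lines at 1.5-fold. The nerve lists with 3 or more genes have medians from -0.07 to 0.06, with 4 of 4 axon and neuron genes a little below 0 and the 1 other myelin gene at 0.60. Below 0 lie 5 of 5 adipocyte genes, among them Lipe, the gene disrupted in these mice, and above 0 lie 9 of 10 fibroblast genes.

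Related genes outside the nerve were read for comparison. The other members of the S100 family had 5 of 10 above the filter and 0 separated, with S100a6 at -0.13 ± 0.13 and S100a1, the form of muscle itself, at -0.02 ± 0.05. Genes of the neuromuscular junction and of the response to denervation had 10 of 14 above the filter, 0 separated, 5 above and 5 below 0, and a median of 0.01 (-0.02 with median centring). On all 4 pairs 4 of the 10 were higher and 2 lower, against 19.5% and 21.1% of tested probe sets. Chrna1, the acetylcholine receptor subunit that rises after loss of innervation, lay at -0.22 ± 0.09 (expected SE 0.12), and Rapsn, which clusters the receptor, at -0.22 ± 0.21. The 4 that were higher on all pairs, chosen after their values were seen, were Ache, the acetylcholinesterase gene (0.43 ± 0.13), the denervation-induced Gadd45a (0.31 ± 0.09), Utrn (0.22 ± 0.17) and Agrn (0.03 ± 0.01). The SEs expected at their levels were 0.18, 0.16, 0.32 and 0.20, in that order. Utrn passed the filter only through HSL-null (30.2 on average, against 25.8 in wildtype). Perineurial cell markers, from the sheath of the nerve, had 3 of 7 above the filter and 0 separated, with the tight junction gene Tjp1 at 0.24 ± 0.13 and the glucose transporter gene Slc2a1 at -0.44 ± 0.30. Macrophage markers had 7 of 10 above the filter with a median of -0.07, and smooth muscle and pericyte markers 8 of 9 with a median of 0.02, and 0 were separated in either list.

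The arrays of the genotypes did not overlap on either control of RNA integrity, and the directions were opposite. For the beta-actin control, the signal at the 3′ end divided by that at the 5′ end was 0.688 to 0.706 in wildtype and 0.816 to 0.823 in HSL-null, while the same quotient for Gapdh was 0.927 to 0.955 and 0.912 to 0.922. Its part in the differences above was not tested.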

How the data were processed

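RNA of pooled soleus was measured on 2 arrays per genotype, taken as duplicates of 1 pool, which the labels do not state outright. The authors deposited 1 linear intensity per probe set and array; the software, background correction and scaling were not given in the sources used here. Each array's mean, with 2% of values trimmed at each end, was near 100. The platform annotation named the probe sets (10855 with 1 symbol, 396 with several, 1237 not listed), updated by gene ID to RefSeq symbols. Values were floored at the 25th percentile and log2 transformed, 66 control probe sets were left out, and probe sets with a mean at or above the median were tested. In gene lists the brightest probe set stands for a gene. On that assumption no p-value was computed. The expected SE at a level is the SD of duplicates among the 500 nearest probe sets. Members and lists were chosen with earlier results of these data known. All member probe sets are named. In the nerve, S100, junction, perineurial and adipocyte lists the separated genes, or else the 2 brightest, are named. From the soleus fibre list only the brightest gene is named. From the fibroblast, endothelial, lymphocyte, macrophage and smooth muscle lists none is. Other genes were chosen after their values were seen, apart from the defining Schwann cell genes. Alternatives covered scaling (limma 3.58.1, R 4.3.3), floor, filter, threshold, each array left out and the replicate number. Python 3.11.15, numpy 2.4.6 and pandas 2.3.3 were used.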

Additional observations from a re-analysis of the deposited data

How the results depend on the processing

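The count of separated members above the filter was 0 under 16 alternatives. With a 1.2-fold threshold it was 0 of the 4 above the filter, and 1 of 8 (Mal) without the filter, an alternative chosen after seeing the data. The median log2 difference of the members above the filter (0.08) ranged from -0.083 to 0.11 with 1 array left out and changed sign without wildtype array 2; the cause was not tested. It was also below 0, at -0.03, with the filter at the 75th percentile, which leaves Pmp22 alone, and with the mean over probe sets per gene, and it was 0.20 with the brightest probe set per gene. Of 96 differences of single probe sets under alternatives, 91 moved by less than their array error. The other 5 were Cnp (0.93 with the floor at the 10th percentile and 0.70 with none), the second Pmp22 probe set (0.39 with no floor), both from values at or under the floor, and the brighter Mbp probe set (0.43 without wildtype array 1, -0.03 without wildtype array 2). The arrays share replicate numbers. With the replicate block the median was 0.08 and the count 0. Deviations of same-numbered arrays correlated at -0.09. With 2 arrays per genotype this is a single value, which cannot settle whether the numbers pair the arrays. Without Pmp22 the ratio of summed levels, with the brighter Mbp probe set, was 1.21. Signal at or under the floor limits Cnp and the second Pmp22 probe set, and signal below the filter limits S100b and Mal.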

Other observations

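Of the 51 nerve genes below the filter, 6 (11.8%) were higher and 6 (11.8%) lower on all 4 pairs, against 15.7% and 14.1% of all probe sets without the filter. By larger amounts than any member, 4 were higher and 5 lower, all named with their values known. The 5 lower were Gfap (log2 difference -0.58 ± 0.31), Pou3f2 (-0.54 ± 0.37), Gjb1 (-0.50 ± 0.37), Galc (-0.49 ± 0.38) and Gap43 (-0.43 ± 0.29). The SEs expected at their levels were 0.52, 0.47, 0.52, 0.51 and 0.48, in that order. The 4 higher were Stmn3, Nefh, Cntfr and Pax3. Stmn3, a microtubule regulator of neurons, measured 9.80 and 11.9 in wildtype and 16.3 and 22.8 in HSL-null (log2 difference 0.84 ± 0.28, against an expected SE of 0.47 at this level). Nefh, the heavy neurofilament subunit, measured 5.30, which is under the floor, and 6.50 against 9.20 and 13.9 (0.89 ± 0.31, expected SE 0.49). Cntfr, the receptor of ciliary neurotrophic factor, measured 4.5, also under the floor, and 8.90 against 9.50 and 11.9 (0.58 ± 0.36, expected SE 0.51). Pax3, a transcription factor of Schwann cell precursors and of muscle precursors, measured 1.9 and 4.0, both under the floor, against 8.70 and 20, and was separated when the filter was left out, as 1 of 72 nerve genes (1.39%) against 1.42% of all probe sets. The fitted differences of Pax3, Nefh and Cntfr depend on the floor. The light and medium neurofilament genes Nefl and Nefm, read on the same arrays, did not share the pattern of Nefh. Nefl measured 7.20 and 1.9 in wildtype and 7.10 and 2.30 in HSL-null, and Nefm lay under the floor on all 4 arrays.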
